A study of Mus musculus with 4 samples.

Results

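The 8 genes described here encode parts of the T cell receptor (TCR): the δ constant gene Trdc, the δ variable gene Trdv4, the γ constant genes Tcrg-C1, Tcrg-C2 and Tcrg-C4, the α constant gene Trac and the β constant genes Trbc1 and Trbc2. They were taken by name from the 31053 genes of the count matrices, and 8 of 8 were found in all 4 matrices. The libraries were droplet 3′ single-cell RNA-seq of live CD45+ cells sorted from dissociated tissue, 2 from normal skin of C57/BL6 mice that carried no tumor and 2 from skin tumors grown in C57/BL6 mice from injected cells of the 2323 line. The 2323 line came from a single mouse tumor model (K14rtTA, tetOCre, P53-/- and a further allele) in which a keratin promoter drives the recombination, so it stands for that model only. The sorted immune cells are those of the host in both groups, and no other treatment was compared. The labels do not say whether a library is 1 animal or a pool, so p-values measure the spread between these libraries, which may be technical.

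A TCR is a heterodimer of either α with β or γ with δ, held in the membrane by the CD3 chains. Trdc lies within the α locus, between the Vα and Jα segments, and is cut out of a chromosome when an α chain is assembled there. Mouse epidermis holds dendritic epidermal T cells (DETC), which carry an almost invariant γδ receptor whose δ chain uses the gene listed as Trdv4, while the dermis holds γδ cells that make IL-17. Constant gene RNA can also be made from a locus that has not assembled a receptor, so a UMI (1 counted molecule) of such a gene does not show a receptor on the cell.

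The β constant genes differ by few bases in their coding part and could be counted apart only where reads fall outside the shared stretches. On GRCm38 (mm10) with the GENCODE M21 annotation, Trbc1 lies at chr6:41538218-41539881 and Trbc2 at chr6:41546730-41548352, both on the plus strand. Their 518 coding bases differ at 23 positions (95.6% identical), and 22 of the 23 lie in the last 150 coding bases, which are printed here because they hold nearly all of what separates the genes. The stretches are spliced from exons within chr6:41538586-41539662 and chr6:41547098-41548178, and capitals mark the bases that differ:
Trbc1: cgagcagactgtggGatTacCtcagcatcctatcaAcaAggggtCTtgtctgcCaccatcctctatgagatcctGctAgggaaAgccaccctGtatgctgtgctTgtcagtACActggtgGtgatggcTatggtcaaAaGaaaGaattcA
Trbc2: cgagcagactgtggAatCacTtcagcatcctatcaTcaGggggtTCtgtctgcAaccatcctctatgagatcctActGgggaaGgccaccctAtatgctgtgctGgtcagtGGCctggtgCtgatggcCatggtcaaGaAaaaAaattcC
Over the last 300 transcript bases, where 3′ reads gather, the aligned parts were 68.5% identical and 0 of 241 windows of 60 bases were shared. Trbc1 and Trbc2 could therefore be told apart at the 3′ end.

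Tcrg-C1 (chr13:19214103-19217024, plus strand) and Tcrg-C2 (chr13:19304649-19307551, minus strand) are closer. Their coding parts are 97.4% identical apart from a run of 15 bases that Tcrg-C2 lacks. That run and the neighbouring differences are shown in capitals, spliced from exons within chr13:19215864-19216550 and chr13:19305128-19305798, since the run is the main feature that sets these genes apart:
Tcrg-C1: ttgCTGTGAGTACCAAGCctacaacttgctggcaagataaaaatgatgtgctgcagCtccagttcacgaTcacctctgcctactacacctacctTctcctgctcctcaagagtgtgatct
Tcrg-C2: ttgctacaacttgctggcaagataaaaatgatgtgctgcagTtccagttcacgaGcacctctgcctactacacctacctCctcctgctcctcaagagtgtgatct
Their last 300 transcript bases were 93.6% identical, and 45 of 241 windows of 60 bases (18.7%) were shared with another γ constant gene, so low Tcrg-C2 beside high Tcrg-C1 is uncertain. Tcrg-C4 (chr13:19344558-19352756, plus strand) shared 0 windows with the others. On chromosome 14, plus strand, lie Trdv4 (chr14:54074905-54075515), Trdc (chr14:54142851-54148868) and Trac (chr14:54220521-54224206).

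The matrices held 2258 to 5176 barcodes and 34893543 to 73904272 UMIs per library, and 1954 to 4555 cells per library were used, with median depths of 10275.5 to 13072 UMIs. Pairs of libraries shared 1 to 7 barcodes. Lymphocytes were gated by markers other than the 8 genes into 9 types, which took in 3578 of 12395 cells. The gates were DETC (Fcer1g and Il2rb), IL-17 γδ, other CD3+ cells with neither Cd4 nor Cd8 (other DN), CD4 T, CD8 T, Treg (Foxp3), cycling CD3+, NK and ILC2. The DETC gate held 497 and 568 cells in the control skins but 39 and 28 in the tumors, and the IL-17 γδ gate of tumor 2 held 4 cells, so that type was not tested. Levels are given as UMIs per 10000 UMIs of a gate, in the order replicate 1 and replicate 2. With 2 libraries a group, an exact permutation test cannot go below p = 0.333, so tests are edgeR's quasi-likelihood test on summed counts with Benjamini-Hochberg adjustment over all genes of a type, called at 0.05.

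Trdc, the constant part of the δ chain, gave the most UMIs of the 8 genes in the γδ gates of control skin (UMIs are counted at 3′ ends and were not scaled by gene length). Its level in the DETC gate was 21.6 and 21.5 in the control skins and 2.29 and 10.2 in the tumors. In the IL-17 γδ gate it was 13.6 and 13.3 in the control skins and 1.11 in tumor 1. The 2 control skins lay close together, whereas the tumors lay lower and far apart from each other.

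**Figure D1:**
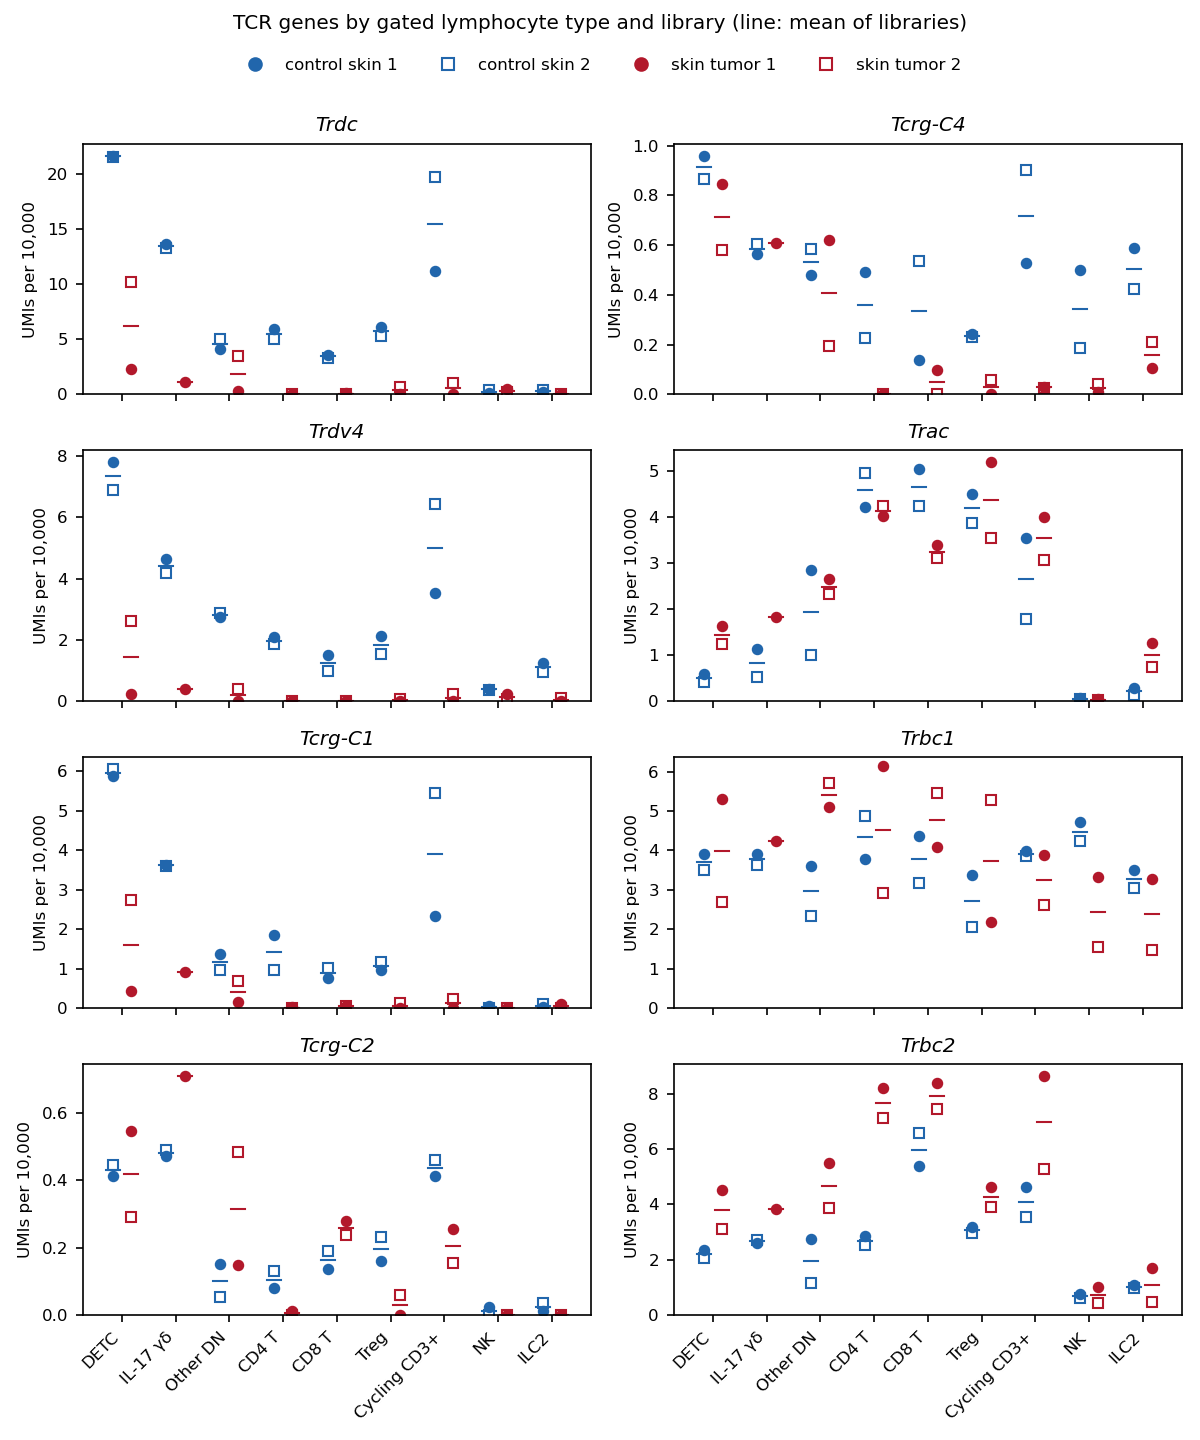
Level of each gene (UMIs per 10,000 UMIs) in 9 gated lymphocyte types, with 1 point per library, blue for control skin, red for skin tumor and a line at the mean of the libraries; gates with fewer than 10 cells are left out and each panel has its own axis. Trdc, Trdv4 and Tcrg-C1 are highest in the DETC gate of control skin, Trac in the Treg gate of tumor 1, Trbc2 in the cycling gate of tumor 1, and Trbc1 stays above 1 in both NK and ILC2 gates of all 4 libraries.

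Trdv4, the variable gene of the DETC δ chain, and Tcrg-C1, the constant part of the DETC γ chain, followed the same order. Trdv4 stood at 7.78 and 6.88 in the DETC gate of the control skins and at 0.246 and 2.62 in that of the tumors. Tcrg-C1 stood at 5.87 and 6.05 in the control skins and at 0.437 and 2.74 in the tumors. Tumor 1 was the lowest library for both genes. Neither difference was called by edgeR's quasi-likelihood test (adjusted p = 0.185 for Trdv4 and 0.19 for Tcrg-C1).

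With each cell thinned to 2000 UMIs, 89.5% and 92.1% of the DETC-gated cells showed Trdc in control skin, against 17.9% and 53.6% in the tumors. In the control skins, 66.5% ± 0.339 (SD, n = 2) of thinned DETC-gated cells held Trdc together with a γ constant gene. Only 6.60% ± 0.158 held Trdc together with Trac, and 84.1% ± 1.68 held Trdc without Trac. Trdc was held together with a β constant gene in 50.6% ± 0.410 of these cells. The usual DETC-gated cell of control skin thus carried δ and γ constant RNA, often with β constant RNA, and no detected α constant RNA.

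The cells of the gate differed in the tumors. At full depth, 15 of 39 gated cells of tumor 1 had a Trdc UMI, and in tumor 1 Trdv4 was found in 6.67% of those Trdc cells, against 93.8% in tumor 2 and 94.9% and 95.3% in the control skins. Trdc-free cells were 24 of 39 and 12 of 28 in the tumors, but 29 of 497 and 18 of 568 in the control skins. Trac was found in 83.3% and 58.3% of the Trdc-free cells of the tumor gate. In those of the control gate it was found in 75.9% and 72.2%, so on this point the groups overlapped. Trdv4 was also found in 80.4% and 61.8% of the Trdc cells of the control IL-17 γδ gate. Trdv4 therefore does not by itself name a DETC. By Trdv4, the Trdc cells of tumor 2 were like those of the control DETC gate, and those of tumor 1 were not. Tcrg-V5, a γ variable gene, was found in 24.9% and 18.3% of the gated control cells, but had 1 UMI in tumor 1 and 0 in tumor 2. The gate of tumor 1 is named only by its rule, Fcer1g with Il2rb in cells with neither Cd4 nor Cd8.

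Of the 8 genes tested in the DETC gate, 0 were called between tumors and control skins by edgeR's quasi-likelihood test, beside 2.7% of all genes tested there, with 2180 genes at an unadjusted p under 0.05. Trdc had a log2 fold change of -1.97 (SE 0.72, adjusted p = 0.191). Trac had 1.36 (SE 0.29, adjusted p = 0.0701), from 0.582 and 0.424 in the control skins to 1.64 and 1.25 in the tumors. The spread between the 2 tumors was wide for the δ genes (Trdc 6.23 ± 5.57, SD, n = 2).

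Within control skin, the DETC gate was set against the IL-17 γδ gate of the same library. Of the 8 genes, 4 were higher in the DETC gate, beside 11.5% of all genes tested, and 1 was lower, beside 11.2%. Trdv4 was higher by 0.74 on the log2 scale (SE 0.11, adjusted p = 7.7e-07), and Trdc by 0.69, Tcrg-C1 by 0.73 and Tcrg-C4 by 0.66. Trac was lower, with a log2 difference of -0.66 (SE 0.18, adjusted p = 0.00493). With no removal of cells of other lineages the 4 calls of higher genes were lost, and with DESeq2 those of Tcrg-C4 and Trac. Trdv4 was still seen in 67% and 51.6% of IL-17 γδ-gated cells, and Fcer1g in 77.2% and 50% of their Trdc cells. The source of this RNA in that gate was not tested. Among 22 CD3 and signalling genes, 12 were higher in the DETC gate, Cd3e, Cd3g, Cd3d and Cd247 among them, and 2 were lower, Cd6 and Sh2d2a, with a median of 0.43 on the log2 scale against -0.01 over all genes. Fcer1g, which was used to gate, is 1 of the 12.

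Trac, which is joined to every rearranged α chain, was found in the αβ gates of both tissues. In the CD4 T gate it stood at 4.22 and 4.94 in the control skins and at 4.01 and 4.24 in the tumors. In the CD8 T gate it stood at 5.04 and 4.23 in the control skins and at 3.38 and 3.11 in the tumors, without overlap, and in the Treg gate at 4.5 and 3.87 against 5.18 and 3.53. None of these differences was called by edgeR's quasi-likelihood test (adjusted p from 0.10 to 0.942).

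Trbc2 was the only member called higher in the tumors, and only in the CD4 T gate. In the other types tested its log2 fold changes ran from -0.31 (ILC2 gate) to 1.28 (other DN gate), and none was called. In the CD4 T gate it stood at 2.85 and 2.53 in the control skins and at 8.21 and 7.1 in the tumors, a log2 fold change of 1.44 (SE 0.19, adjusted p = 0.00335). Both tumors lay above both control skins, but the call was lost with no removal of cells of other lineages (adjusted p = 0.151). In that gate 1 of 7 members tested rose, beside 6.54% of all genes tested, and 4 fell, beside 8.77%.

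The 4 that fell were the γδ genes. Trdc stood at 5.90 and 5.00 in the CD4 T gate of the control skins, with 751 UMIs in all, and at 0 in both tumors. Taking 3 UMIs over the tumor group as the floor, Trdc was at least 292-fold lower in the tumors, Trdv4 at least 105-fold and Tcrg-C4 at least 22.1-fold. The 0 of 192 tumor cells allows a share of up to 1.56% of cells with a Trdc UMI. Tcrg-C1 fell to 2 UMIs in tumor 1 and 0 in tumor 2 from 188 and 30 in the control skins (adjusted p = 0.00156). These genes passed the filter on low counts through the control skins alone, so they had to differ.

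γδ genes fell in 3 other gates as well, with the same limit that those near 0 in the tumors passed the filter on low counts through the control skins and had to differ. In the CD8 T gate 3 of 8 members fell, beside 7.2% of all genes tested. Trdc stood at 3.59 and 3.28 in the control skins and at 0.11 and 0 in the tumors, and Trdv4 was at least 85.6-fold lower, at 0 UMIs in the tumors. In the Treg gate 3 of 7 members tested fell, beside 4.76%, and Trdc stood at 6.14 and 5.27 against 0.0438 and 0.674. Each tumor value came from 1 cell, with 3 Trdc UMIs in tumor 1 and 34 in tumor 2. The cell of tumor 2 had 15841 UMIs in all, held Fcer1g and had a doublet score of 0.147. In the other DN gate 1 of 7 fell, beside 4.35%, which was Trdv4 (2.75 and 2.86 in the control skins, 0 and 0.387 in the tumors). With no removal of cells of other lineages, 3 of 3 Treg calls and the Trdc call in the CD8 T gate were lost. With DESeq2 the Treg calls of Trdc and Tcrg-C1 and the Trdv4 call in the other DN gate were lost.

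The cells that gave this δ RNA in control skin stood apart within their gates. In the CD4 T gate, 31.2% and 30.0% of control cells had a Trdc UMI, and these had median depths of 14429 and 18096 UMIs, against 8481 and 7261 for the gate's other cells. Fcer1g, a signalling chain abundant in DETC, was found in 88.0% and 77.8% of the Trdc cells and in 21.8% and 9.52% of the others. Trac was found in 80.0% and 77.8% of the Trdc cells, so many held RNA of both kinds of receptor. Their median doublet scores were 0.0993 and 0.0637, against 0.0217 and 0.0154.

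Cells that should lack a TCR showed the same pattern. Unlike the lymphocyte gates, their gates set no limit on CD3, other-lineage or MHC class II genes. In control macrophages, 44.3% and 40.2% of cells had a Trdc UMI (median depths 34308 and 25889 UMIs, against 16985 and 13530 without), and in control Langerhans cells 24.1% and 25.1% did. In tumor macrophages the shares were 0.101% and 1.13%. The number of Trdv4 UMIs per Trdc UMI was 0.36 and 0.321 in control DETC-gated cells, 0.357 and 0.37 in the CD4 T gate, 0.286 and 0.274 in macrophages and 0.318 and 0.275 in Langerhans cells. The Trdc shares of the CD4 T gate lay below those of control macrophages and above those of control Langerhans cells. Macrophages (median depths 21470 and 17974 UMIs) and Langerhans cells (18697 and 20538) were both deeper than the CD4 T gate (9127 and 8244.5). By level the CD4 T gate, at 5.90 and 5.00, lay above both, at 3.37 to 3.59 in macrophages and 1.45 to 1.93 in Langerhans cells. The Trdc RNA of the CD4 T gate is not read as expression by CD4 T cells. The source of this RNA was not tested.

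When CD4 T, CD8 T and Treg cells with any Fcer1g UMI were also removed, Trdc in the control skins went to 0.204 and 0.119 in the CD4 T gate, 0.0671 and 0.0272 in the CD8 T gate and 0 and 0.259 in the Treg gate. Trdc, Trdv4, Tcrg-C1 and Tcrg-C4 then failed the filter on low counts in all 3 gates and none could be called. Trbc2 was still higher in the tumor CD4 T gate, with a log2 fold change of 1.29 (SE 0.28, adjusted p = 0.0111). Trac in the CD8 T gate was then called lower, with -0.90 (SE 0.25, adjusted p = 0.0348), and in the CD4 T gate it stood at 6.24 and 6.11 in the control skins and 3.91 and 4.12 in the tumors, which was not called (-0.70, SE 0.24, adjusted p = 0.0809). The γδ genes were thus not tested without the Fcer1g cells, and in the CD4 T gate the tumors still held 0 Trdc UMIs, against 8 and 2 in the control skins.

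**Figure D2:**
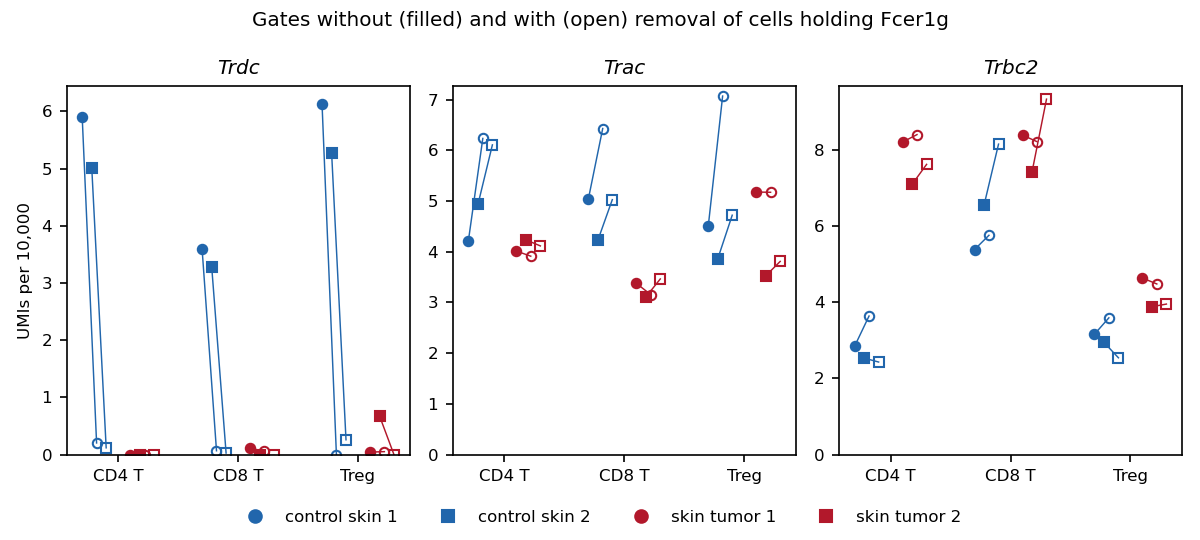
Level (UMIs per 10,000) of Trdc, Trac and Trbc2 in the CD4 T, CD8 T and Treg gates of each library, filled with all gated cells and open without the cells that hold Fcer1g, joined by a line. Trdc of the control skins (blue) drops to 0.259 or less in all 3 gates, whereas Trbc2 in the CD4 T gate stays higher in both tumors (red).

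Most of the CD3 and signalling genes were not called in these gates. Among the 22 CD3 and signalling genes in the CD4 T gate, 1 rose (Themis) and 4 fell (Trat1, Fcer1g and Sh2d2a among them), with a median log2 fold change of -0.37 against 0.04 over all genes tested, of which 6.54% rose and 8.77% fell. Trat1, which encodes a TCR-associated adaptor, fell in the CD4 T gate (-3.38, SE 0.22), the CD8 T gate (-4.40, SE 0.31) and the Treg gate (-1.19, SE 0.23). Fcer1g fell by 3.35, 2.46 and 2.53 on the log2 scale in the same 3 gates. The control sums of these gates include the cells that held both Trdc and Fcer1g. The list genes were not read without the Fcer1g cells, so these falls do not show a change in the remaining cells. In the CD8 T gate 0 of 22 rose and 6 fell, beside 316 of 7809 genes tested rising and 7.2% falling. In the Treg gate 0 of 22 rose and 3 fell, beside 187 of 5839 rising and 4.76% falling. Of 12 genes that act on the TCR loci, 5 were tested in the CD4 T gate, where Gata3 was lower. In the CD8 T gate 7 were tested, with Gata3 and Zbtb16 lower and Id3 higher. In the Treg gate 5 were tested, and Runx3 was lower. The shares over all genes in these 3 gates are those given above. In the other DN gate 6 were tested, and Gata3 was lower and Id3 higher, beside 4.35% of all genes lower and 137 of 4303 higher. The calls of locus genes in the αβ gates also include the Fcer1g cells, so they do not show a change in the remaining cells.

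Classing all CD3+ cells by Trdc and Trac at full depth gave the reverse make-up in the tissues. Cells with Trdc and no Trac were 48.1% and 60.1% of CD3+ cells in the control skins and 3.61% and 8.37% in the tumors. Cells with Trac and no Trdc were 27.5% and 14.4% in the control skins and 81.8% and 77.9% in the tumors. Cells with both were 20.5% and 22.2% against 2.11% and 2.66%, and those with neither 3.91% and 3.28% against 12.5% and 11%. All 4 classes were without overlap between the groups. The cells with both had median depths of 12695 and 12763 UMIs in the control skins, against 9693.5 and 10308 for those with Trdc alone. Those with neither had 9895 and 8396 in the control skins and 6119 and 5386 in the tumors. Tumor cells with Trac and no Trdc had 10283.5 and 9161. The class shares were not tested apart from depth. These are shares of sorted cells, so a share can move because another class does.

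**Figure D3:**
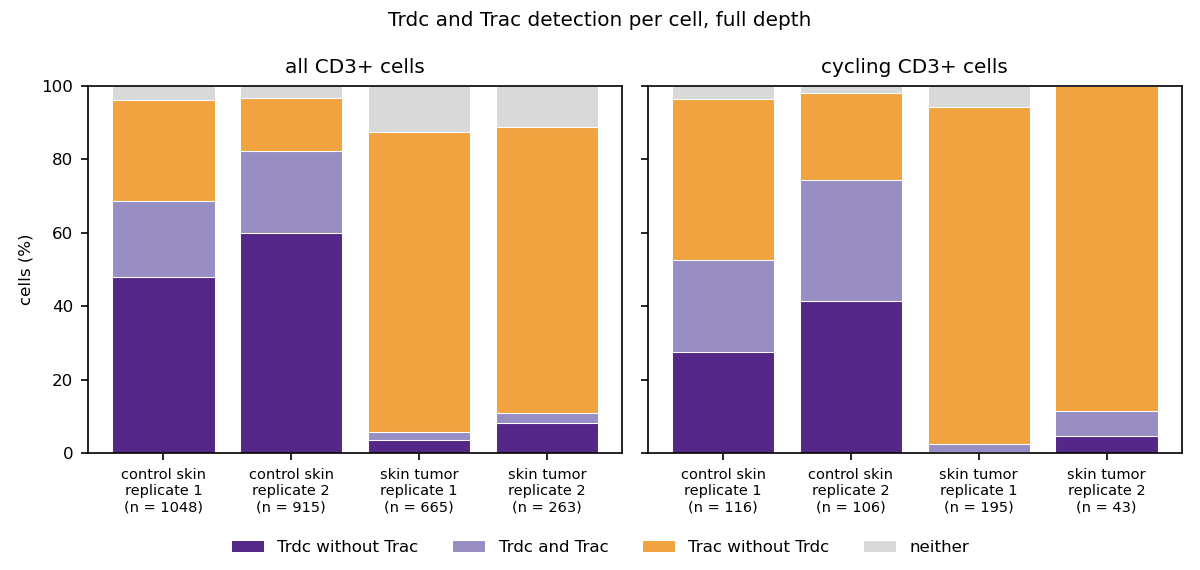
Share (%) of CD3+ cells (left) and of cycling CD3+ cells (right) in each library that held Trdc without Trac, both, Trac without Trdc or neither, at full depth, with the number of cells under each bar. Trac without Trdc takes 14.4% to 27.5% of the CD3+ cells of control skin and 77.9% to 81.8% of those of the tumors.

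Cycling cells, with at least 3 UMIs of Mki67, Top2a, Birc5 and Cdk1, were found in both main classes. Of the cells with Trdc and no Trac, 6.35% and 8% were cycling in the control skins, and 1 of 24 and 2 of 22 in the tumors. Of the cells with Trac and no Trdc, 17.7% and 18.9% were cycling in the control skins and 32.9% and 18.5% in the tumors. Of the cells with both, 13.5% and 17.2% were cycling in the control skins, and 4 of 14 and 3 of 7 in the tumors. Between the 2 main classes, that with Trac had the higher cycling share in all 4 libraries, by far the most in tumor 1. Cycling cells had median depths of 15765 to 18383 UMIs, and cells with both genes were deeper than those with Trdc alone in all 4 libraries. The order of the classes was not tested apart from depth.

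Among the cycling cells, Trdc stood at 11.2 and 19.6 in the control skins and at 0.0563 and 1.03 in the tumors. That difference was not called (log2 fold change -5.17, SE 1.24, adjusted p = 0.052). Trdv4, Tcrg-C1 and Tcrg-C4 were called lower, 3 of 8 members, beside 7.55% of all genes tested. The same limit holds here. In the tumors Trdv4 stood at 0 and 0.229 and Tcrg-C1 at 0.00734 and 0.242. These 3 genes were near 0 there and passed the filter on low counts through the control skins, so they had to differ. Tcrg-C4 stood at 0.528 and 0.903 in the control skins and at 0.0318 and 0.0255 in the tumors (-4.69, SE 0.44, adjusted p = 0.0119). The calls of Trdv4 and Tcrg-C1 were lost without control skin 1 and without control skin 2 (highest adjusted p 0.273 and 0.151 over all alternatives), and that of Tcrg-C4 without control skin 2. All 3 calls were also lost with no removal of cells of other lineages, those of Trdv4 and Tcrg-C1 with doublets removed at 3% per 1000 cells, and that of Trdv4 with DESeq2.

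The Trdc level of cycling cells in control skin was highest in the cells with neither Cd4 nor Cd8, at 20.7 and 25.2. These were 57 and 77 cells, and Trdc was found in 78.9% and 93.5% of them. In the control cycling cells with Cd4 only it stood at 3.85 and 3.70, and in those with Cd8 only at 1.94 and 1.31. Cells with neither Cd4 nor Cd8 were 49.1% and 72.6% of the control cycling cells but 2.56% and 6.98% of those of the tumors. These were 5 and 3 tumor cells, with Trdc at 0 and 17.1. The difference in Trdc over the whole cycling gate was not tested apart from this make-up. In the tumors 93.8% and 95.3% of the cycling cells held Trac. Trbc2 stood at 4.61 and 3.53 in the cycling cells of the control skins and at 8.65 and 5.27 in those of the tumors, which was not called (adjusted p = 0.267). Cycling against non-cycling CD3+ cells of the same library, 0 of 8 members were called, beside 20.9% of all genes, with 3958 genes at an unadjusted p under 0.05.

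Tcrg-C2, a γ constant gene, was low in all gates. It stood at 0.411 and 0.445 in the DETC gate of the control skins. In the CD8 T gate it stood at 0.137 and 0.19 in the control skins and at 0.279 and 0.237 in the tumors, and in the tumor CD4 T gate 1 UMI was counted. Among cycling tumor cells with Cd8 and no Cd4, 29.3% of 147 and 38.5% of 13 held a Tcrg-C2 UMI, against 0 of 13 and 0 of 13 cycling cells with Cd4 and no Cd8. CD8 T against CD4 T over all 4 libraries gave a log2 difference of 2.14 (SE 0.70, adjusted p = 0.16), so 0 of 8 members were called in that pair, beside 2.49% of all genes, with 1207 genes at an unadjusted p under 0.05.

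The γ variable gene Trgv2 was also counted in the DETC, CD8 T and cycling gates. It stood at 0.503 and 0.486 in the DETC gate of the control skins and at 0.955 and 0.0415 in that of the tumors. In the CD8 T gate it stood at 0.172 and 0.225 in the control skins and at 0.208 and 0.207 in the tumors, which overlap. Among the cycling cells it stood at 0.341 and 0.439 in the control skins and at 0.355 and 0.14 in the tumors, with a UMI in 23.6% and 9.3% of the tumor cells. Tcrg-V5, another γ variable gene, stood at 0.301 and 0.204 in the DETC gate of the control skins and at 0.0273 and 0 in that of the tumors. Of 175 variable genes, at most 7 passed the filter on low counts in any comparison. In the cycling cells 1 of 4 tested fell, Tcrg-V5, beside 7.55% of all genes tested. Tcrg-V5 had 0 UMIs in the cycling cells of both tumors and passed the filter through the control skins, so it had to differ.

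NK and ILC2 gates, which were set to hold 0 CD3 UMIs, carried β constant RNA, with little or no Trac in the NK gate. Trbc1 stood at 4.71 and 4.24 in the NK gate of the control skins and at 3.33 and 1.55 in that of the tumors. In the ILC2 gate it stood at 3.51 and 3.06 in the control skins and at 3.29 and 1.48 in the tumors. Trac in the NK gate was 0.0212 to 0.0683 in the 4 libraries, and in the ILC2 gate 0.298 and 0.133 in the control skins and 1.27 and 0.739 in the tumors. The Trbc1 level of control NK cells was thus near that of the CD4 T gate (3.8 and 4.87), with hardly any Trac. This was not particular to NK and ILC2. In the control DETC gate Trbc1 stood at 3.51 to 3.91 beside Trac at 0.424 to 0.582. In the control IL-17 γδ gate Trbc1 stood at 3.64 to 3.90 beside Trac at 0.516 to 1.13.

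**Figure D4:**
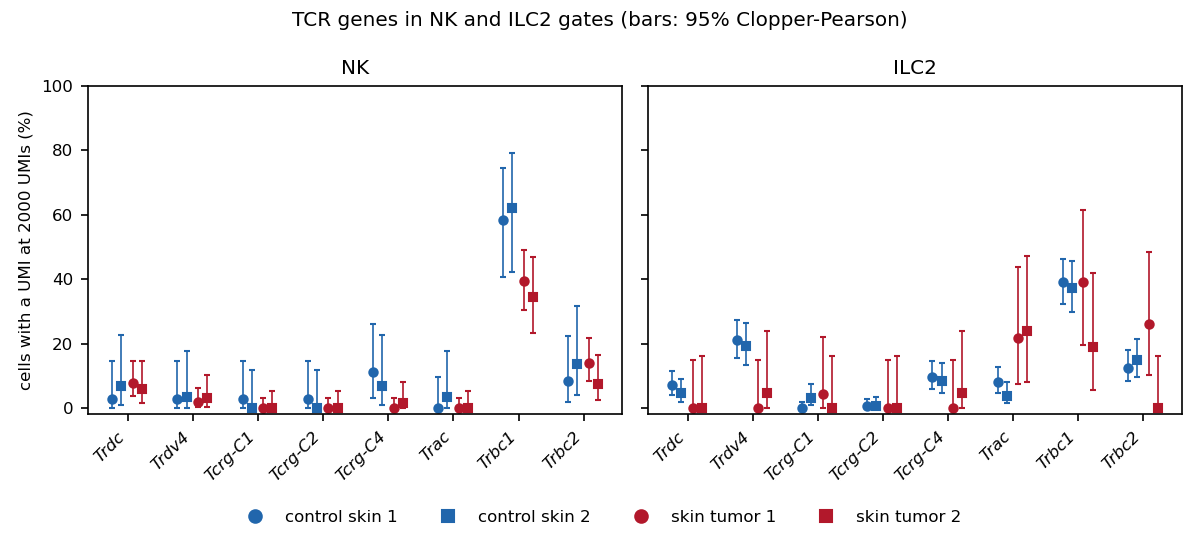
Share of NK and ILC2 gated cells with a UMI of each gene (%), each cell thinned to 2000 UMIs, with 95% Clopper-Pearson intervals for counting error only. Trbc1 is the most often seen in the NK gate of all 4 libraries, and Trdv4 is seen in 21.1% and 19.4% of control ILC2 cells, more than Trdc.

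The same held in cells in which neither Trdc nor Trac was counted. Of these NK cells, Trbc1 was found in 89.3% and 90.0% in the control skins and in 67.4% and 61.7% in the tumors. Control neutrophils, another type without a TCR, had Trbc1 in 2 and 6 UMIs in all. Thinned to 2000 UMIs, Trbc1 was seen in 58.3% and 62.1% of control NK cells and in 39.5% and 34.3% of tumor NK cells. In control macrophages it was seen in 11.7% and 6.44%, so the NK share stood above the background.

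Control ILC2 cells had more Trdv4 than Trdc. Trdv4 stood at 1.25 and 0.955 in the control skins and at 0 and 0.106 in the tumors, beside Trdc at 0.259 and 0.37 in the control skins and 0 in the tumors. That is 4.83 and 2.58 Trdv4 UMIs per Trdc UMI in the control skins, where DETC-gated cells had 0.36 and 0.321. The control NK gate had 2.57 and 1, on 18 and 14 Trdv4 UMIs, and the control other DN gate 0.673 and 0.568. Among ILC2 cells without Trdc and Trac, Trdv4 was found in 42.7% and 39.9% and Tcrg-C4 in 22.3% and 21.0% of the control cells. The Trdv4 RNA of ILC2 cells therefore did not come in the ratio found in DETC, and this was not particular to ILC2.

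Between tumors and control skins, 0 of 5 members tested were called in the NK gate, beside 0.0568% of all genes, with 913 genes at an unadjusted p under 0.05. In the ILC2 gate 0 of 6 were called, beside 0% of all genes, with 1118 genes at an unadjusted p under 0.05. Trdv4 in the ILC2 gate had a log2 fold change of -4.17 (SE 0.74, adjusted p = 0.123). Trdc, at 0 in the tumor ILC2 cells, had a fitted -7.66 (SE 1.75, adjusted p = 0.176 by edgeR's quasi-likelihood test) and was not called either. The ILC2 gate held 30 and 29 tumor cells, with median depths of 2647.5 and 2986 UMIs in their Trdc-free cells against 5622 and 5795 in the control skins. What depth, few cells and 2 libraries a group each contributed to the lack of calls was not tested. NK against ILC2, 1 of 6 members was lower in NK, beside 4.94% of all genes tested, which was Trac (log2 difference -3.50, SE 0.61, adjusted p = 0.0052). That call was lost without tumor 1 (adjusted p = 0.0626).

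The share of Trbc1 among Trbc1 and Trbc2 UMIs ordered the gates. It was 86.2% and 87.4% in NK and 76.2% and 76.1% in ILC2 of the control skins, 62.3% and 62.9% in DETC, and 44.8% and 32.6% in CD8 T. In the CD4 T gate it was 57.1% and 65.8% in the control skins and 42.8% and 29.1% in the tumors. In the NK gate it was 76.6% and 78.1% in the tumors. Tumor shares were below both control shares in the CD4 T, NK, DETC and cycling gates. The groups overlapped in the CD8 T, Treg and other DN gates. In the ILC2 gate the tumor shares were 66.0% and 75.7%, from 31 and 28 Trbc1 UMIs beside 16 and 9 Trbc2 UMIs. Their intervals for counting error, 50.7% to 79.1% and 58.8% to 88.2%, held both control shares, so no order is read there. The shares were not tested between the groups.

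**Figure D5:**
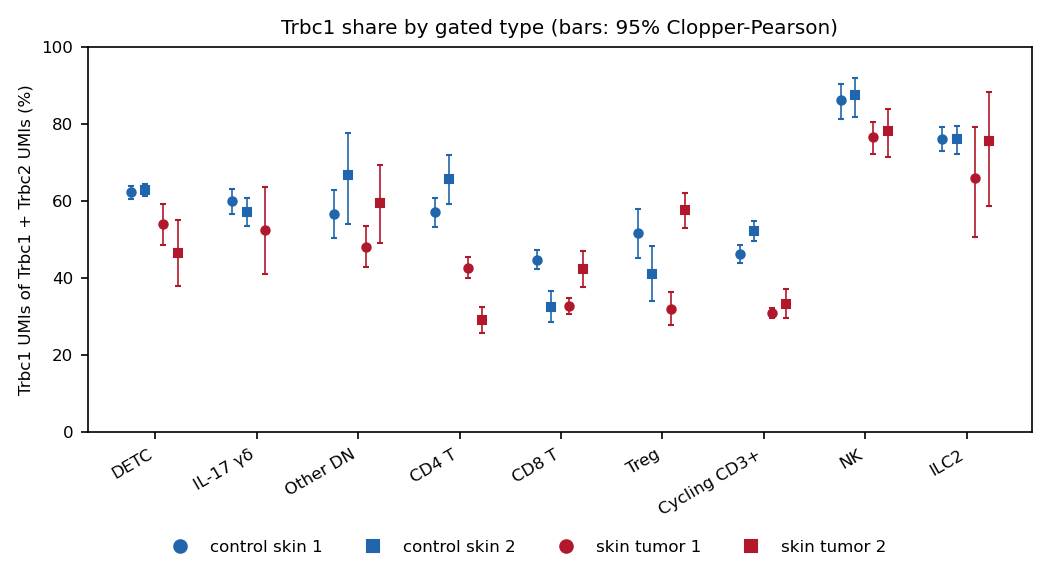
Share of Trbc1 among the Trbc1 and Trbc2 UMIs (%) by gated type, with 1 point per library (blue control skin, red skin tumor) and 95% Clopper-Pearson intervals for counting error only. NK cells lie at 76.6% to 87.4%, above the T cell gates, and the CD4 T gate lies lower in both tumors than in both control skins.

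A test of whether the tumor effect differed from that in the CD4 T gate called 2 of 8 members as higher for NK, beside 2.53% of all genes, 0 for CD8 T, beside 0.0703%, with 564 genes at an unadjusted p under 0.05, and 0 for Treg, beside 0.0469%, with 630. The 2 were Trdc (adjusted p = 0.00193) and Trdv4 (adjusted p = 0.00386). Trdc in the NK gate was 0.159 and 0.371 in the control skins and 0.479 and 0.181 in the tumors, which overlap, while the CD4 T gate went from 5.90 and 5.00 to 0. Both genes passed the filter on low counts through the control CD4 T gate and had to differ, and without the Fcer1g cells of the αβ gates 0 were called. Treg against CD4 T, 0 of 7 members were called, beside 3.94%, with 1114 genes at an unadjusted p under 0.05.

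Over 45 sums of a gate in a library, 12 types in all, the genes outside the TCR loci most like Trdc in log2(CPM + 1) were Zmat4 (Pearson r 0.929), Fam174b (0.908) and Kcnma1 (0.904). Those most like Trac were Cd5 (0.924), Cd6 (0.902) and Bcl11b (0.856). Those most like Tcrg-C2 were Cd3e (0.755), Cd3g (0.75) and Sit1 (0.743). The sums share libraries and depth, and the r values are a description.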

How the data were processed

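The authors sorted live CD45+ cells, made 10x 3′ libraries and deposited 1 matrix of UMI counts per library, unnormalized, aligned to mm10 with Cell Ranger (7.1.0 in the submitters' processing notes, 7.0.1 in the file headers). The later integration of the study is not in these files. Cells were kept with at least 100 genes and 1000 UMIs, at most 15% mitochondrial UMIs and a log10 genes to log10 UMIs ratio of at least 0.8, as in the study's methods. Scrublet (scanpy 1.11.5) ranked doublets per library, and the top 1% per 1000 cells was removed. T cell gates needed at least 3 UMIs of Cd3d, Cd3e and Cd3g; NK and ILC2 gates needed 0. The lymphocyte gates also needed under 20 UMIs per 10000 of other-lineage genes and under 60 of MHC class II genes. Macrophages needed at least 10 UMIs per 10000 of C1qa, C1qb and C1qc. Langerhans cells needed at least 5 UMIs of Cd207 and 1 of Epcam. Neutrophils needed at least 50 UMIs per 10000 of S100a8 and S100a9 and 1 UMI of Csf3r. The macrophage, Langerhans and neutrophil gates had no limit on CD3, other-lineage or MHC class II genes. The IL-17 γδ, NK and ILC2 gates needed 2 UMIs of their lists. Counts were summed per library and type and tested with edgeR 4.0.16 (TMM, filterByExpr, quasi-likelihood) in R 4.3.3, in types with at least 10 cells in every library, with 17 alternative settings, DESeq2 1.42.0 among them. Pairs of types and differences of the tumor effect had the library as a block. The test was checked on simulated data. Each SE was taken from the log2 fold change divided by √F. Intervals are 95% Clopper-Pearson and cover counting error only. For detection shares each cell was thinned to 2000 UMIs, leaving out shallower cells.

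The members are always named; for Trdc, Trac and Tcrg-C2 the 3 most correlated genes are named too, and list genes by their calls. The members and lists were chosen with earlier results of these data known. The removal of Fcer1g cells and the stricter doublet removal were chosen after seeing the data. The labels share replicate numbers but do not say that a number pairs samples. An allele of the tumor line and a gene of the signalling list are not reported here.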

Additional observations from a re-analysis of the deposited data

Results flagged for a closer look

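The tumor effect on Trdc and on Trdv4 differed between the NK and the CD4 T gate by a test of the difference itself. The fitted difference was 11.94 on the log2 scale for Trdc and 8.75 for Trdv4 (edgeR's quasi-likelihood test, adjusted p = 0.00193 and 0.00386). Both fitted values rest on 0 UMIs in the tumor CD4 T cells and are no bound, and since both genes were counted in that gate through the control skins alone, a difference had to appear. Trdc was lower in the tumor CD4 T gate in 2 of 2 tumors, and in the NK gate the groups overlapped. Both calls were lost when Fcer1g cells were removed from the αβ gates, and over the alternatives the adjusted p reached 0.0859 for Trdc and 0.319 for Trdv4. The call of Trdv4 was also lost without control skin 1.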

How the results depend on the processing

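Against 15 member tests called between tumors and control skins over 8 types, 9 were called with no removal of other lineages, 6 without Fcer1g cells in the αβ gates, 30 with no filter on low counts and 25 with the replicate block; leaving out 1 library in turn gave 12 to 25. Genes of all kinds called numbered 4087, against 1222 with no removal of other lineages and 9300 with no filter, and 2039 to 9400 with 1 library left out. Between gated types 6 member tests were called, against 12 with no filter and 1 to 6 with 1 library left out; without either control skin the DETC against IL-17 γδ pair could not be fitted, having no residual degrees of freedom. For a tumor effect that differs between types, 2 were called, against 0 without Fcer1g cells, 6 with no filter and 1 to 4 with 1 library left out. The main setting ran 56 member tests between tumors and control skins, 37 between gated types and 24 for a tumor effect that differs. The number of tests changed with the setting, so these counts do not share a base. Without Fcer1g cells, Trdc, Trdv4, Tcrg-C1 and Tcrg-C4 failed the filter on low counts in the αβ gates. In that setting 3067 genes of all kinds were called, and with the replicate block 5285. No called value changed sign. With the replicate block all 15 calls were kept and 0 lost. Same-numbered libraries deviated together with correlations of -0.07 to 0.16 over the types. Each correlation rests on 1 difference between libraries per group, so it cannot settle whether a shared number pairs libraries. Calls of single members were most often lost with no removal of other lineages. The cause of these changes was not tested, except that fewer libraries or genes enter by construction. DESeq2 called 14, 4 and 3633 where the values above are 15, 6 and 4087; it was not run on the difference between types. Few cells limit the tumor DETC, ILC2 and IL-17 γδ gates, with 39 or fewer per library, and the other DN gate of tumor 2, with 19. Small control gates were NK, with 36 and 29 cells, and Treg, with 31 and 32. The CD4 T and other DN gates of control skin 2 held 30 and 32 cells, and the CD8 T gate of tumor 2 held 33.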
